A study of Pongo abelii with 8 samples.

Results

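The Kruppel-like factors are zinc finger transcription factors that bind GC-rich and CACCC sequences in promoters and enhancers. They share their DNA-binding fingers and differ in the rest of the protein, which recruits either activators or repressors. KLF4 is one of the reprogramming factors, KLF2, KLF4 and KLF5 support self-renewal in mouse embryonic stem cells, and several family members are induced by serum, TGF-beta or steroid hormones in fibroblasts. Here 10 of these genes were followed in orangutan fibroblasts and in induced pluripotent stem cells (iPSCs) made from them: KLF2, KLF4, KLF5, KLF6, KLF7, KLF9, KLF10, KLF11, KLF12 and KLF13. They were found by their symbol in the platform annotation, which gave exactly 1 of these symbols to 19 of the 22277 probe sets on the array. No probe set with several symbols held one of them.

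RNA was taken from 8 cultures of 2 Sumatran orangutans, KB10460 (female, 43 years old) and KB10973 (male, 29 years old), both labelled as healthy controls. Each animal gave 1 culture of dermal fibroblasts and 3 iPSC colonies, and each culture was measured on its own one-colour array of human probes. The iPSCs were made by transducing these fibroblasts with pMX retroviruses that carried human OCT4, SOX2, KLF4 and c-MYC, with valproic acid in the early medium, and were grown on mouse embryonic fibroblast feeders. The growth labels and the methods of the paper put fibroblasts in medium with fetal bovine serum and iPSCs in medium with a serum replacement. The design text instead gives the serum-replacement medium for both. If the growth labels hold, an effect of the medium and one of the cell type cannot be told apart. Colonies of 1 animal are not independent animals, so the spread behind the p-values is that between cultures, which may be technical. In such bulk RNA, fewer cells that express a gene and less RNA per cell cannot be told apart.

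The values are log2 expression values normalized with RMA, so a difference of 1 is a 2-fold difference in signal, and the medians of the 8 arrays lay between 3.74 and 3.82. A signal below the array median is close to background and understates a fold change. Probe sets differ in affinity and in mismatches to the orangutan sequence, so a value of one is not set against that of another. Calls required a change over 1.5-fold in limma and that the p, adjusted over all probe sets after Benjamini and Hochberg, be under 0.05. The labelled cell types were borne out by their markers. All 6 measured pluripotency markers were higher in the iPSCs, and of 14 fibroblast markers 13 were lower and 1 (THY1) was higher. The mean log2 value of the pluripotency list was 3.92 to 3.98 in the fibroblasts and 8.78 to 9.19 in the iPSCs, and that of the fibroblast list 9.20 to 9.66 and 4.81 to 5.18. SOX2, a pluripotency marker, was also carried by a vector. Of 7 endoderm markers 2 were higher in the iPSCs and 5 were not called. GATA6, which was higher, lay at 5.88 to 9.03 in the colonies and at 3.47 and 3.79 in the KB10460 and KB10973 fibroblasts. Whether the iPSC cultures held differentiating cells was not tested.

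Between the cell types 8 of the 19 probe sets were called, 1 higher in the iPSCs and 7 lower. Over all probe sets 21.8% were called, 12.2% higher and 9.60% lower. An unadjusted p under 0.05 was found for 8 of the 19, against 37.5% of all. KLF9 had the largest fall among them, KLF2, KLF4, KLF6 and KLF11 fell by less, and KLF10 was the member called higher. With 1 probe set per gene, the brightest on average, 6 of the 10 genes were called, 1 higher and 5 lower, against 26.7% of 11963 genes. At 7 of the 19 probe sets the colonies and the fibroblasts did not overlap, with the colonies above at 1 and below at 6. This was so for 38.0% of all probe sets, 19.8% above and 18.2% below. The median log2 change over the 19 probe sets was -0.08, beside -0.01 over all.

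**Figure D1:**
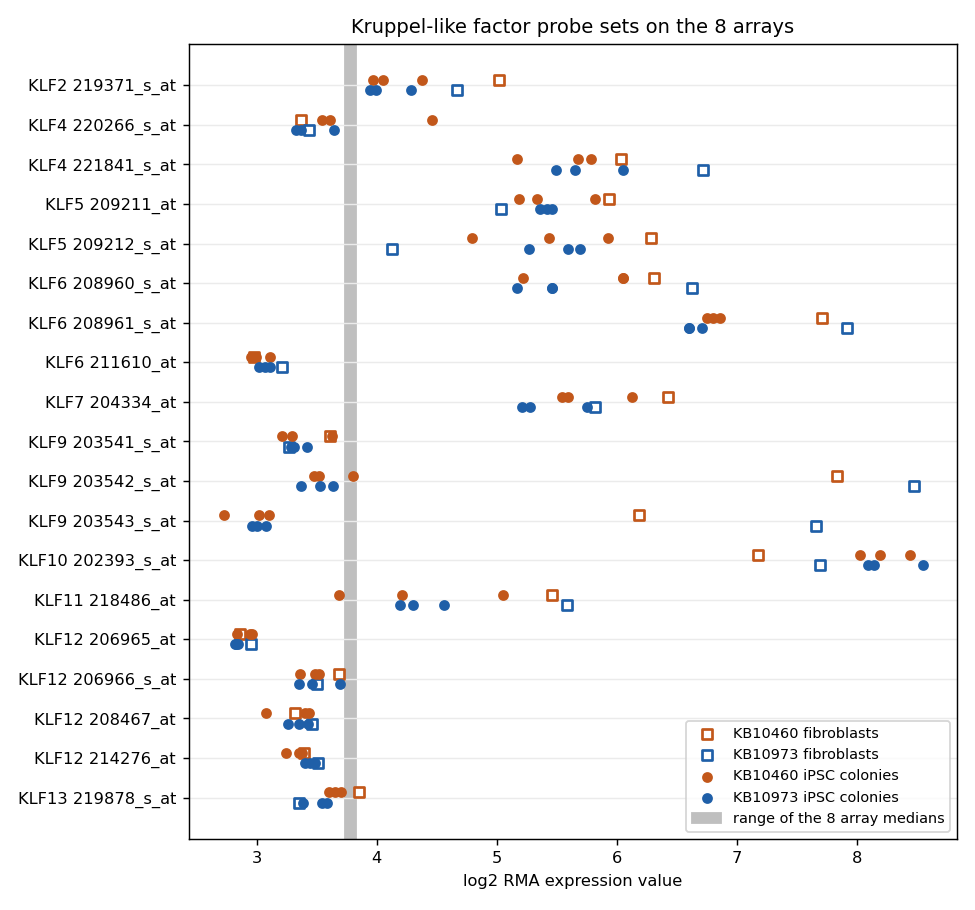
Log2 RMA expression values (horizontal axis) of the 19 probe sets of the Kruppel-like factors, with open squares for fibroblast cultures and filled circles for iPSC colonies, orange for KB10460 and blue for KB10973. The grey band spans the array medians (3.74 to 3.82). The KLF9 squares at 203542_s_at (7.83 and 8.48) stand far to the right of the circles, while the squares of KLF5 at 209212_s_at (6.28 and 4.12) lie on both sides of them.

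KLF9, KLF10, KLF11 and KLF13 belong to the branch of the family that recruits the SIN3A co-repressor. KLF9 is known as an early target of glucocorticoid and thyroid hormone receptors. At 203542_s_at its log2 value was 7.83 in the KB10460 fibroblasts and 8.48 in the KB10973 fibroblasts, against a lowest value of 3.37, a median of 3.52 and a highest of 3.81 in the 6 iPSC colonies. The groups did not come near each other. The log2 fold change was -4.60 (standard error 0.17, adjusted p = 1.03e-07 from limma), a 24.2-fold lower signal in the iPSCs, and only KB10460 colony 1 was above the median of its array. At 203543_s_at the fibroblasts had values of 6.18 in KB10460 and 7.66 in KB10973, and the colonies had a lowest value of 2.725, a median of 3.01 and a highest of 3.10, all under their array medians. The change was -3.94 (standard error 0.30, adjusted p = 1.38e-05 from limma), or 15.3-fold. The iPSC values of both probe sets were close to background, where folds are understated. The third probe set of the gene, 203541_s_at, was below the median of every array (3.22 to 3.63) and was not called (log2 fold change -0.08, adjusted p = 0.73 from limma). Both falls were called under every alternative in which these probe sets were tested. KLF9-DT, the transcript divergent from KLF9, was noted after its values were seen and lay between 3.01 and 3.26 on the 8 arrays, with no call. It was below the median of every array, so a fall was not detectable.

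KLF10 (202393_s_at), known as TGF-beta inducible early gene, was the member with a higher signal in the iPSCs. Its log2 value was 7.17 in the KB10460 fibroblasts and 7.70 in the KB10973 fibroblasts, and the iPSC colonies had a lowest value of 8.03, a median of 8.17 and a highest of 8.55. Every colony was thus above both fibroblast cultures. KLF10 thus rose by 0.81 on the log2 scale (standard error 0.17, adjusted p = 0.0067 from limma), or 1.75-fold, with changes of 1.05 within KB10460 and 0.56 within KB10973. The call ended without the KB10460 fibroblasts (log2 fold change 0.54, adjusted p = 0.088) and when the 3 colonies of a donor were averaged (adjusted p = 0.075).

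KLF11 (218486_at) is the closest relative of KLF10 and is likewise induced by TGF-beta. It had values of 5.46 and 5.59 in the KB10460 and KB10973 fibroblasts, and a lowest value of 3.69, a median of 4.26 and a highest of 5.05 in the iPSCs. All colonies were below both fibroblast cultures, but they were spread widely, with KB10460 colony 2 the highest and KB10460 colony 1 the lowest. Their SD of 0.45 exceeded that of 97.3% of all probe sets. KLF11 fell by 1.19 on the log2 scale (standard error 0.28, adjusted p = 0.011 from limma), or 2.28-fold, and the call ended without the fibroblasts of KB10460 (adjusted p = 0.053) or of KB10973 (adjusted p = 0.067). The changes of KLF10 and KLF11, set side by side, were thus of opposite sign. KLF13 (219878_s_at), which regulates RANTES in T cells, was below the array median on 7 of the 8 arrays and was not called. Its values were 3.85 and 3.35 in the KB10460 and KB10973 fibroblasts and 3.39 to 3.70 in the iPSCs, and the 95% interval of its log2 fold change ran from -0.32 to 0.28.

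KLF6 and KLF7 are closely related activators. KLF6, known from wound healing and fibroblast activation, fell at both of its probe sets with a signal above background. At 208961_s_at the fibroblast values were 7.71 in KB10460 and 7.92 in KB10973, and the colonies lay at 6.60, 6.73 and 6.86 (lowest, median and highest). Here KLF6 fell by 1.09 on the log2 scale (standard error 0.10, adjusted p = 3.74e-05 from limma), or 2.13-fold, and it was called in all 19 alternatives. The colonies lay within 0.26 of each other. At 208960_s_at the values were 6.31 and 6.63 in the fibroblasts of KB10460 and KB10973 and 5.17, 5.46 and 6.06 in the colonies, so that KLF6 fell by 0.90 on the log2 scale here (standard error 0.26, adjusted p = 0.026 from limma). KB10460 colonies 2 and 3 had the highest iPSC values (6.06 and 6.05) and the other 4 colonies lay at 5.17 to 5.46. This second call ended without the fibroblasts of KB10460 (adjusted p = 0.062) or KB10973 (adjusted p = 0.16), without KB10973 colony 1 (adjusted p = 0.0501), when arrays were weighted by arrayWeights (adjusted p = 0.076) and when the 3 colonies of a donor were averaged (adjusted p = 0.056). The third KLF6 probe set, 211610_at, was below the median of every array (2.96 to 3.21).

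KLF7 (204334_at), best known from neurons and adipocytes, was not called. Its log2 value was 6.42 in the KB10460 fibroblasts and 5.82 in the KB10973 fibroblasts, with a lowest value of 5.21, a median of 5.57 and a highest of 6.13 in the iPSCs. The groups overlapped through KB10460 colony 1, whose value of 6.13 was above that of the KB10973 fibroblasts. Its change of -0.53 on the log2 scale had a wide error (standard error 0.24, adjusted p = 0.15 from limma) and a 95% interval from -1.09 to 0.02. Without KB10460 colony 1 it was -0.64 and was called (adjusted p = 0.044).

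**Figure D2:**
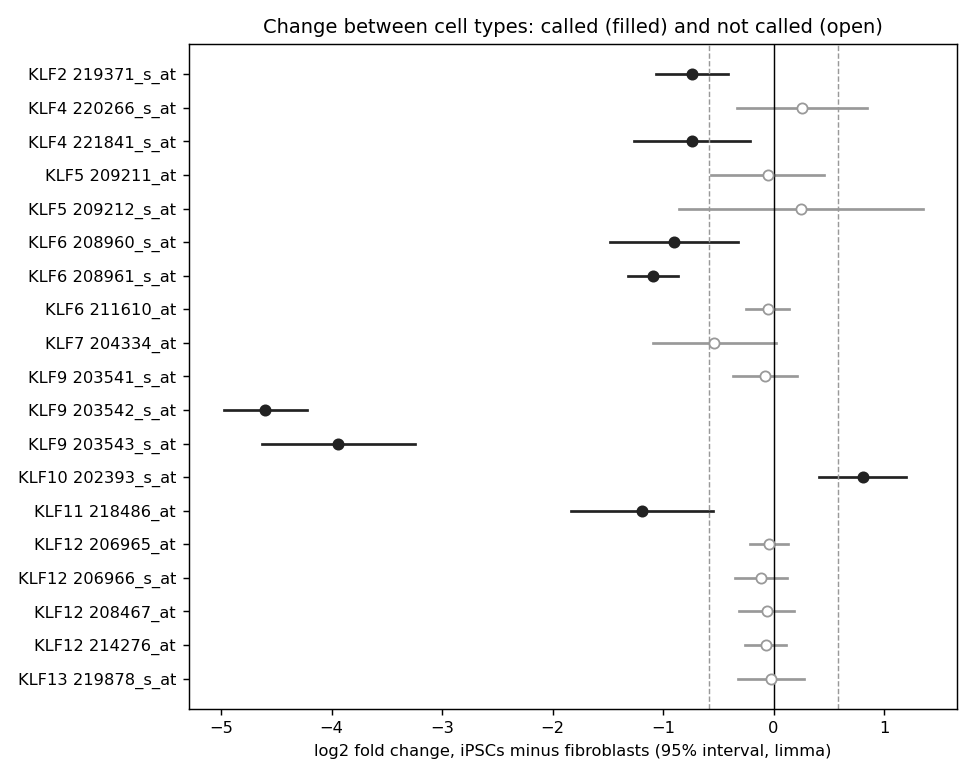
Log2 fold change from fibroblasts to iPSCs (horizontal axis) of each probe set with its 95% interval from limma, with filled points for called and open points for uncalled probe sets and dashed lines at a 1.5-fold change. The intervals of the KLF12 probe sets are narrow around 0, the one of KLF5 at 209212_s_at is the widest, and KLF9 stands alone at -4.60 and -3.94.

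KLF2, KLF4 and KLF5 are the members of the naive pluripotency network. KLF2 (219371_s_at), also a shear-stress factor of endothelium, had log2 values of 5.02 in the KB10460 fibroblasts and 4.67 in the KB10973 fibroblasts. The colonies lay at 3.95, 4.02 and 4.38 (lowest, median and highest), all below both fibroblast cultures. KLF2 fell by 0.74 on the log2 scale (standard error 0.14, adjusted p = 0.0039 from limma), or 1.67-fold. Among 7 endothelial markers 4 were not called, 2 rose and 1 fell in the iPSCs, beside 15.2% higher and 11.5% lower over all genes. The mean level of that list was 3.86 to 4.30 in the fibroblasts and 4.17 to 4.69 in the iPSCs. The markers that rose were KDR, by 2.81, and TEK, by 1.93 on the log2 scale. The marker that fell was PECAM1, at 8.10 in the KB10460 fibroblasts and 6.65 in the KB10973 fibroblasts. The part of such cells in the KLF2 values was not tested. The KLF2 call ended without the KB10460 fibroblasts (log2 fold change -0.56, adjusted p = 0.053).

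KLF4 was delivered to the fibroblasts in a human vector, and the positions of the probes of either probe set were not analysed here. Whether these values hold the vector's transcript, that of the orangutan gene or both was therefore not tested. The probe sets of the gene gave different pictures. At 221841_s_at the fibroblast values were 6.04 in KB10460 and 6.72 in KB10973, and the colonies lay at 5.17, 5.67 and 6.05. KB10973 colony 1 was level with the KB10460 fibroblasts, and the other 5 colonies were below both fibroblast cultures. The fall by 0.74 on the log2 scale (standard error 0.23, adjusted p = 0.040 from limma) passed the threshold narrowly. It was -0.40 without the KB10973 fibroblasts (adjusted p = 0.34), and the call ended in 9 of 19 alternatives, among them those without KB10460 colony 1 or 2 or KB10973 colony 2 or 3 (adjusted p between 0.053 and 0.073). At 220266_s_at the fibroblasts had values of 3.37 in KB10460 and 3.44 in KB10973 and 5 of the 6 colonies had values of 3.33 to 3.65, all below their array medians. KB10460 colony 1 stood apart at 4.46, the only array on which this probe set exceeded the median. The change there was 0.26 (standard error 0.26) and was not called (adjusted p = 0.54 from limma).

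KLF5, an activator of proliferating epithelium and early embryo, had no call, and its fibroblast cultures differed more than its iPSC colonies. At 209212_s_at the log2 value was 6.28 in the KB10460 fibroblasts and 4.12 in the KB10973 fibroblasts, while the 6 colonies lay between, at 4.79, 5.51 and 5.92 (lowest, median and highest). The gap of 2.16 between the 2 fibroblast cultures was wider than that of 99.5% of all probe sets. At 209211_at the values were 5.94 in the KB10460 fibroblasts, 5.03 in the KB10973 fibroblasts and 5.19 to 5.82 in the colonies, so at both probe sets the KB10460 fibroblasts were the highest of the 8 cultures and the KB10973 fibroblasts the lowest. The pooled log2 fold changes were 0.25 (standard error 0.49, adjusted p = 0.78 from limma) and -0.05 (standard error 0.23, adjusted p = 0.90). The first has a 95% interval from -0.85 to 1.35, and a change of 1.5-fold in either direction lies within it. Its sign followed the fibroblast culture: 1.33 without the KB10460 fibroblasts (adjusted p = 0.024 from limma, called) and -0.83 without the KB10973 fibroblasts (adjusted p = 0.12). Of 6 epidermal markers none was called, 1 was above the array median on every array, and the list had mean levels of 3.54 to 3.66 in the fibroblasts and 3.49 to 3.57 in the iPSCs. Other markers also differed between the fibroblast cultures, in either direction. The mean of the fibroblast markers was lower in KB10460 (9.20) than in KB10973 (9.66), the opposite of KLF5. The mean of the blood and macrophage markers and PECAM1 differed in the direction of KLF5. The mean of the 3 measured blood and macrophage markers was 4.77 in KB10460 and 3.80 in KB10973, against 3.01 to 3.16 in the iPSCs. Most of this gap between the fibroblasts came from CD14, at 7.99 and 5.43. The other 2 markers were not called between the cell types. PECAM1 differed likewise (8.10 and 6.65). The part of these markers in the KLF5 values was not tested.

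KLF12 belongs to the branch that recruits the CtBP co-repressors and is known as a repressor of the TFAP2A gene. Its 4 probe sets (206965_at, 206966_s_at, 208467_at and 214276_at) had values between 2.82 and 3.70 and were below the array median on all 8 arrays. No change was called, and the 95% intervals of their log2 fold changes lay between -0.35 and 0.18. At signals this close to background a fall, or a change that stays under background, was not detectable. In the orangutan annotation of RefSeq (NHGRI_mPonAbe1-v2.0) KLF12 is the protein-coding neighbour of KLF5, with 0 such genes between them, and KLF4 and KLF9 share a chromosome with 213 such genes between them.

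Between the iPSCs of the donors, 3 colonies against 3, none of the 19 probe sets was called by limma, and none had an unadjusted p under 0.05. Over all probe sets 0.0898% were called and 10.2% had an unadjusted p under 0.05. KB10973 minus KB10460, the largest log2 differences were those of KLF4 at 220266_s_at (-0.42, standard error 0.24), KLF6 at 208960_s_at (-0.41, standard error 0.23), KLF7 (-0.34, standard error 0.20) and KLF4 at 221841_s_at (0.19, standard error 0.20). The 95% intervals of the 19 differences in signal lay between -0.97 and 0.75, short of a 2-fold difference at either end. Most iPSC values of KLF9, KLF12, KLF13, KLF4 at 220266_s_at and KLF6 at 211610_at were below the array median. A difference between the donors is understated there. KLF9 at 203542_s_at differed by -0.09 (standard error 0.12) and KLF10 by 0.04 (standard error 0.15), each with an adjusted p over 0.86 from limma.

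The change from fibroblasts to iPSCs was compared between the donors, where the single fibroblast array of a donor was given the spread seen between colonies. The difference was called for 1 of the 19 probe sets, against 2.91% of all, and 5 of the 19 had an unadjusted p under 0.05, against 15.2% of all. KLF9 at 203543_s_at had a change of -3.23 in KB10460 and -4.65 in KB10973, a difference of -1.42 (standard error 0.22, adjusted p = 0.020 from limma). Its colonies were at background in both donors (means 2.95 and 3.02), while the fibroblasts lay apart (6.18 and 7.66). The other KLF9 probe set with a fall, 203542_s_at, changed by -4.23 and -4.96, and the difference of -0.73 was not called (adjusted p = 0.18 from limma). The KLF9 call ended without KB10973 colony 1 (adjusted p = 0.054) or colony 2 (adjusted p = 0.059), and with these averaged (adjusted p = 0.053).

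KLF5 had changes of opposite sign in the 2 donors. At 209212_s_at the log2 change was -0.90 in KB10460 and 1.40 in KB10973, and at 209211_at it was -0.49 and 0.38. The difference of 2.30 at the first (standard error 0.53, adjusted p = 0.073 from limma) and that of 0.87 at the second (standard error 0.31, adjusted p = 0.24) were not called. KB10973 minus KB10460, the colonies differed by 0.14 at the first and -0.04 at the second, and the fibroblasts by -2.16 and -0.90. Both differences thus rest mainly on the single fibroblast array of each donor. They stayed at 2.00 to 2.57 and at 0.74 to 1.05 under the alternatives, but whether they were called depended on single colonies of KB10460. Without colony 1 the first was called (2.00, adjusted p = 0.021), without colony 2 both were (2.57, adjusted p = 0.029, and 1.05, adjusted p = 0.036). KLF6 at 208961_s_at was the last of the 5 with an unadjusted p under 0.05, with changes of -0.90 and -1.28 and an uncalled difference of -0.38 (adjusted p = 0.31 from limma). KLF6 at 208960_s_at, with changes of -0.54 and -1.27, had an uncalled difference of -0.73 (adjusted p = 0.53 from limma).

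**Figure D3:**
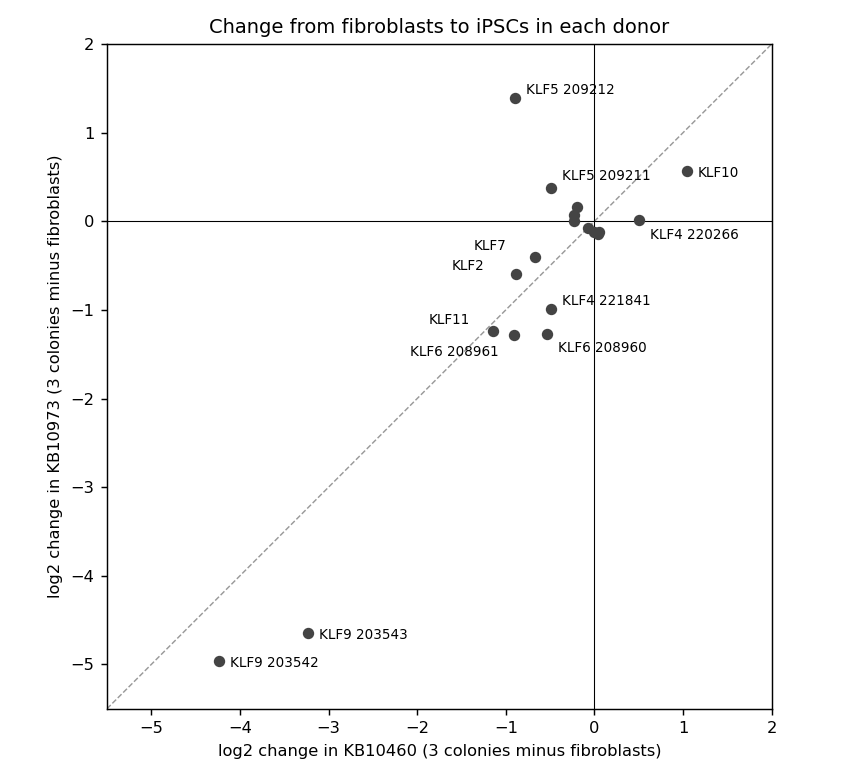
Log2 change from fibroblasts to the mean of 3 iPSC colonies in KB10460 (horizontal axis) and in KB10973 (vertical axis), 1 point per probe set, with a dashed line where the changes are equal. KLF5 lies in the upper left quadrant (-0.90 and 1.40 at 209212_s_at), KLF10 in the upper right (1.05 and 0.56), and KLF9 at 203542_s_at and 203543_s_at below the line.

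**Figure D4:**
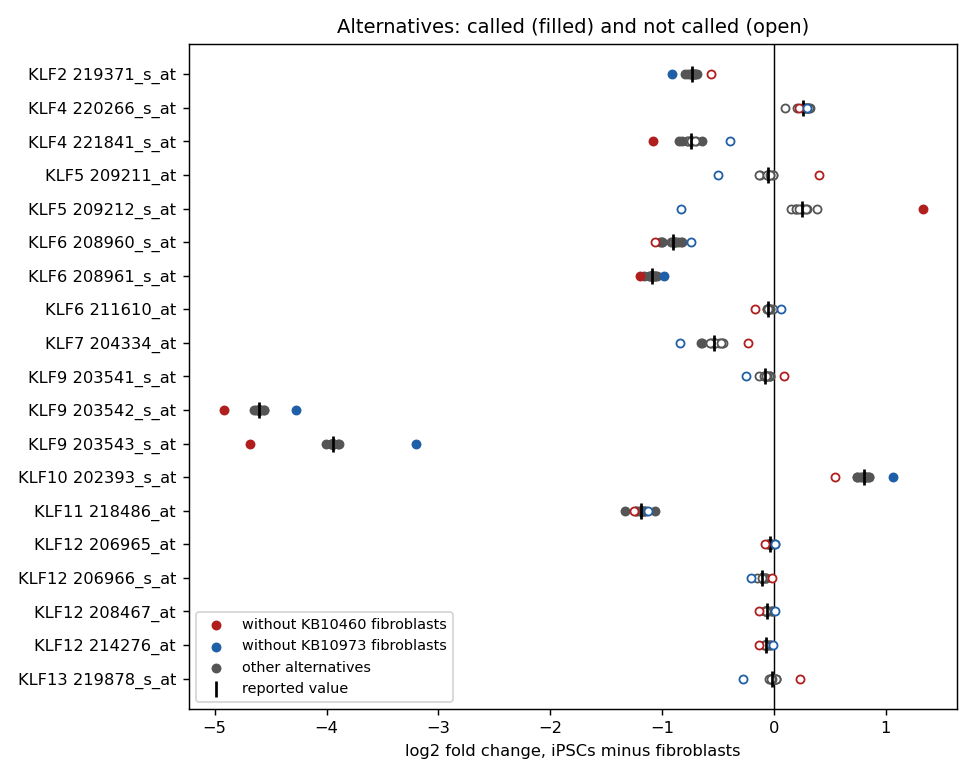
Log2 fold change from fibroblasts to iPSCs (horizontal axis) of each probe set under each alternative, filled where called and open where not, with a black bar at the reported value. Leaving out the KB10460 fibroblasts (red) or the KB10973 fibroblasts (blue) gave the widest shifts for KLF5 at 209212_s_at (1.33 and -0.83), and KLF6 at 208961_s_at was filled in all 19.

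Of the other members of the family and the related SP factors, 8 of 16 listed genes had a probe set with their symbol. SP3, a factor that competes for GC boxes, fell by 1.19 on the log2 scale (standard error 0.10, adjusted p = 2.16e-05 from limma), from 8.95 and 9.13 in the fibroblasts of KB10460 and KB10973 to 7.70 to 7.99 in the iPSCs. KLF1, KLF3, KLF8, KLF15, SP1, SP2 and SP4 were not called, with a median log2 change of -0.11 over the 8 genes. KLF1, KLF3, KLF8, SP1 and SP4 were below the median of every array (2.86 to 3.78). In these a fall, or a change that stays under background, was not detectable. Of the partners that bind Kruppel-like factors, 5 of 15 measured genes were higher, 2 were lower and 8 were not called, beside 15.2% higher and 11.5% lower over all genes. WWP1, a ubiquitin ligase that acts on KLF2 and KLF5, rose by 1.74 and the deacetylase HDAC2 by 1.56, while the ubiquitin ligase SMURF2 fell by 1.76 and the acetyltransferase KAT2B fell by 1.54 on the log2 scale.

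KLF2, KLF4, KLF6 and KLF10 are known as immediate early genes, which cells switch on within minutes of a serum or growth factor signal. Of 22 other immediate early genes 9 were lower, 3 were higher and 10 were not called, with a median log2 change of -0.57. Over all genes 11.5% were lower and 15.2% higher. The list as drawn up held MYC, which was also carried by a vector and was not among the called genes. The nuclear receptor genes NR4A2 and NR4A3 fell by 5.71 and 4.80 and IER3 by 4.60 on the log2 scale, whereas FOS rose by 2.32 (standard error 0.66, adjusted p = 0.026 from limma). FOS thus stood with KLF10 among the genes that rose. The mean level of the list also differed between the fibroblast cultures, at 7.17 in KB10460 and 6.39 in KB10973, against 5.47 to 6.04 in the iPSCs. The culture medium differed between the cell types by the growth labels, and its part was not tested.

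Beside KLF10 and KLF11, 8 of 18 TGF-beta response and pathway genes were lower, 3 were higher and 7 were not called (median log2 change -0.30). The receptor gene TGFBR2 fell by 6.11, TGFBI by 5.94 and LTBP2 by 3.31, and BAMBI, a decoy receptor that dampens the pathway, rose by 6.18 on the log2 scale. Beside KLF9, 6 of 9 glucocorticoid response genes were lower, 1 was higher and 2 were not called (median log2 change -2.30). NR3C1, the glucocorticoid receptor itself, fell by 3.35, the metallothionein MT2A by 4.81, CEBPD by 3.95 and SGK1 by 3.60. TSC22D3 was the gene of this list that rose, by 0.90 on the log2 scale. Beside KLF2, KLF4 and KLF5, the 11 measured genes of the naive pluripotency network and the LIF pathway were split, 2 higher, 2 lower and 7 not called (median log2 change 0.04). The counts of these 3 lists stand beside 15.2% higher and 11.5% lower over all genes. PRDM14 and NANOG, which are active in human as well as mouse pluripotent cells, rose by 3.54 and 2.37, and TBX3 and the LIF co-receptor IL6ST fell by 4.32 and 2.23. NANOG is also in the pluripotency marker list, and DUSP1 is in both the immediate early and the glucocorticoid list.

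**Figure D5:**
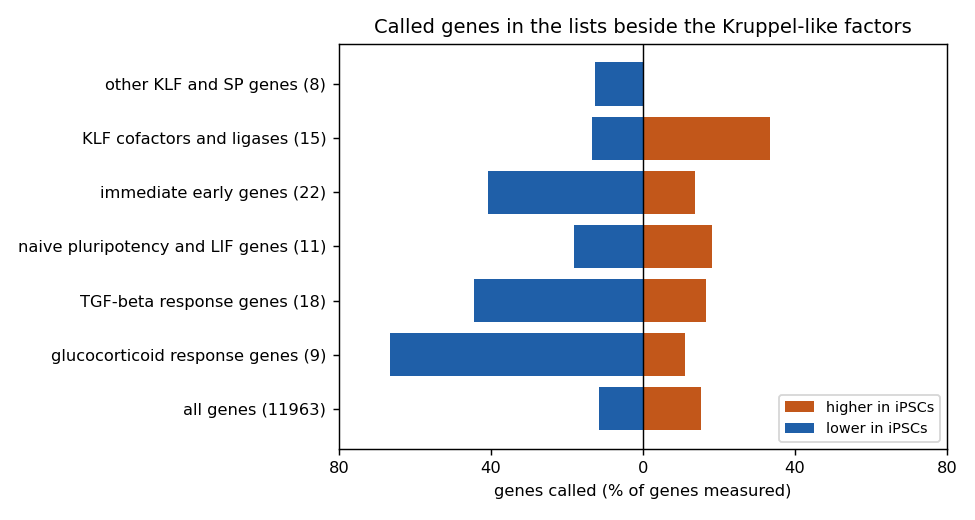
Percent of the measured genes of each list that were called higher (right, orange) or lower (left, blue) in the iPSCs, 1 probe set per gene, with the number of genes in brackets and all 11963 genes in the last bar (15.2% higher and 11.5% lower). The glucocorticoid response list has 6 of 9 genes lower, the immediate early list 9 of 22 lower, and the list of cofactors 5 of 15 higher.

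By Pearson r over the 8 arrays, which mostly reflects the gap between the cell types, the genes closest to KLF9 were IL1R1, TRIM22 and S100A4 (each 0.999). Those closest to KLF10 were COQ3 (0.991), MRPS28 (0.988) and CLNS1A (0.982). Those closest to KLF4, taken at 221841_s_at, were ZNF407 (0.956), STOM (0.940) and PTPN22 (0.936). The other KLF4 probe set, 220266_s_at, had an r of -0.12 with 221841_s_at, so this likeness is that of 1 probe set. Over the 6 iPSC arrays alone, other genes came first, SLK for KLF9 (0.990), NMNAT2 for KLF10 (0.995) and MTERF4 for KLF4 (0.993). With 11963 genes and so few arrays, such values are a description of these profiles.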

How the data were processed

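Total RNA was labelled with biotin, hybridized to Affymetrix arrays of human genes and normalized with RMA in the WebArray software by the authors, who deposited 1 log2 value per probe set and array. The version of WebArray was not stated. RMA equalizes the arrays, so a shift of most transcripts would be removed. All 8 columns had a sample (0 left over). The number of arrays limits the precision. Genes were named from the platform annotation (19070 probe sets with 1 symbol, 1043 with several, 2164 with none).

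limma 3.58.1 in R 4.3.3 was fitted to all probe sets: 6 iPSC against 2 fibroblast arrays, 3 against 3 colonies of the donors, and the difference of the change over 4 groups. Calls needed 1.5-fold and p under 0.05 in a two-sided test after Benjamini-Hochberg adjustment, whereas the methods of the paper name the SPLOSH method. Summaries used Python 3.11.15. Only the fit between the cell types was tested on simulated data, which held no donor effect.

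The members, the gene lists and the tests were chosen with earlier results of these data known. Every probe set of the 10 genes is named, and of each gene list at most the 4 called genes with the largest change, at the probe set with the highest mean. Named outside this rule, after their values were seen, were KLF9-DT, the uncalled relatives, THY1, TSC22D3 and markers beside a result. Also named were MYC (for its vector) and DUSP1 (for its place in 2 lists). Lists also covered markers of other cells. Of these, 2 of 7 endoderm, 2 of 2 mesoderm and 1 of 5 neuroectoderm genes were higher in the iPSCs, and 1 of 5 trophoblast and 1 of 3 blood and macrophage genes were lower. Over all genes 15.2% were higher and 11.5% lower. KDR is in the endothelial and the mesoderm list. The donor pairs the arrays, since the colonies were made from that animal's own fibroblasts. Across probe sets, however, r was 0.02 between the donor difference of the fibroblasts and that of the colonies. Alternatives used a donor block, weighted or averaged arrays, other normalization, a filter on dim probe sets, another moderation, Storey's q value or other fold thresholds, or left out 1 array. Sequences of the probes, promoters and proteins were not used here.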

Additional observations from a re-analysis of the deposited data

Results flagged for a closer look

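At the KLF4 probe set 220266_s_at, KB10460 colony 1 (log2 value 4.46) lay far from the other 5 iPSC colonies: its gap to the nearest of them was 0.719 of the range of the 6 colonies. This was 1 of 19 probe sets examined, and the critical value for such a gap is set so that chance passes it in about 1 of 20 groups. Several lists set the same colony at an end of the iPSCs. It had the lowest mean of the 2 measured mesoderm markers (5.65, against 6.66 to 7.65 in the other colonies), with TBXT at 4.74 against 6.02 to 7.34. Its endoderm mean was also the lowest (4.30, against 4.38 to 5.35). Its mean of the immediate early genes was the highest (6.04, against 5.47 to 5.95). The part of these genes in the KLF4 value was not tested. The change of KLF9 at 203543_s_at differed between the donors by -1.42 on the log2 scale in the interaction term of limma, a value that rests on 1 fibroblast array per donor.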

How the results depend on the processing

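With the donor as a replicate block 8 member probe sets were called between the cell types, as without it, and the block changed none of their calls. Of the 8, 5 were called with colonies averaged within donor (0 higher), 4 at a fold threshold of 2 (0 higher, 4 lower), and 4 (3 lower) among the 7 with a mean log2 value of at least 5. KLF2, KLF9 and KLF11 were not tested under that filter. Leaving out 1 array gave 5 to 8 calls, 1 higher and 4 to 7 lower, with the lowest counts without either fibroblast array. Without the KB10460 fibroblasts the calls of KLF2, KLF10, KLF11 and KLF6 at 208960_s_at ended and the higher call was KLF5 at 209212_s_at, and without the KB10973 fibroblasts those of KLF4 at 221841_s_at, KLF11 and KLF6 at 208960_s_at ended. With one of these left out, the remaining one is assumed to vary like the colonies. Beyond that construction the cause was not tested. Between the donors' colonies the count was 0 under every alternative, the colony number as a replicate block included. Colony numbers share only a number. For the difference of the change the count was 0 to 3 when a colony was left out, 0 under the filter and 0 with KB10973 colonies 1 and 2 averaged, an alternative chosen after seeing the data. Without a fibroblast array this difference could not be fitted.

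Of 349 values of single probe sets between the cell types, 313 kept their direction and side of the threshold, 22 were no longer called, 2 became called and 12 changed sign, none of them called as reported. Most of these followed which fibroblast array was left out. Without the KB10460 and without the KB10973 fibroblasts, KLF5 was at 0.398 and -0.505 at 209211_at and at 1.33 and -0.831 at 209212_s_at, KLF6 was at -0.169 and 0.0624 at 211610_at, KLF9 was at 0.0926 and -0.248 at 203541_s_at, KLF12 was at -0.0837 and 0.00871 at 206965_at and at -0.137 and 0.0101 at 208467_at, and KLF13 was at 0.229 and -0.274. KLF13 was also at 0.000368 with KB10973 colonies 1 and 2 averaged, 0.0215 with median centring, 0.0177 with quantile normalization and 0.0165 without KB10973 colony 1, and KLF12 at 206965_at was at 0.00628 with median centring.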
